A study of Mus musculus with 4 samples.

Results

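Of the 16282 peaks that a Foxo1 antibody gave on chromosomes 1 to 19 in mouse regulatory T cells, 1289 were weak in the antibody list, with a score below 190, and also overlapped a peak from streptavidin capture of biotinylated Foxo1 by at least 1 base. These 1289 regions, called weak shared peaks here, were 7.92% of the autosomal antibody peaks and 36.3% of the 3554 autosomal antibody peaks that overlapped a streptavidin peak. Foxo1 binding was measured by chromatin immunoprecipitation followed by sequencing (ChIP-seq) in cells labelled nTreg, either from wild-type B6 mice with a Foxo1 antibody or from Foxo1tagBirA mice, whose own Foxo1 carries biotin, with streptavidin. Each method had 1 precipitated and 1 input library, so 4 libraries in all, and no group had a replicate. Libraries were amplified for 15 to 19 PCR cycles and cut from a gel at about 250 bases, adapters included. The age and sex of the mice, their number and any pooling are not given in the sources used here. A streptavidin precipitation from cells without tagged Foxo1 was not analysed here, and the lists hold no cell type markers with which to check the label nTreg.

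Foxo1 is a forkhead transcription factor. Signalling through PI3K and Akt leads to its phosphorylation and export from the nucleus, and in resting T cells, where that signalling is low, it binds DNA and regulates genes for homing, survival and quiescence. Regulatory T cells restrain immune responses and need Foxo1 for their suppressive function. In an antibody precipitation the fragments depend on what the antibody recognises, while streptavidin binds biotin, which the tagged protein carries but which naturally biotinylated proteins carry too. The 2 routes therefore differ in this source of unspecific signal. Any source that comes with ChIP-seq itself could be common to both.

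The score is the peak caller's own value for each peak. It was taken as the value MACS 1.4 derives from a p-value, where a higher score stands for a clearer excess of reads, although no header defines it. A score of 190 lies above the median of the antibody list (167), so that 60.3% of the autosomal antibody peaks (9812) counted as weak. Of these, 13.1% overlapped a streptavidin peak (shared peaks), against 35.0% of the 6470 peaks with a score of 190 or more and 21.8% of all autosomal antibody peaks. The members were chosen by their antibody score and their overlap with a streptavidin peak, and widths, distances and streptavidin scores come from the same 2 sets of peak calls, so every comparison below is a description without a test. Intervals in parentheses are exact (Clopper-Pearson) 95% binomial intervals over peaks. They cover counting error only and say nothing of the spread between mice or libraries, and the read depth of each library is unknown.

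Within the weak range, the antibody score did not separate shared from unshared peaks. Weak shared peaks had antibody scores from 86.3 to 189.87, with a median of 134 and quartiles of 110 and 159. The 8523 weak unshared peaks had a median of 132 and quartiles of 112 and 158, so the distributions lay nearly on each other. The shared percentage was 15.5% (13.5 to 17.7) at scores from 80 to under 100, the lowest class, and 13.5% (12.1 to 14.9) at scores from 160 to under 190, the highest. The 3 classes between them had 11.8% to 13.1%, so the share did not rise steadily with the score.

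On both sides of the threshold the antibody scores followed each other closely. The member with the highest antibody score lay at chromosome 6, 94081416 to 94081603 (mm9, positions counted from 1), with an antibody score of 189.87 and a streptavidin score of 94.6. The members next below it were at chromosome 4, 116480109 to 116480412 (antibody 189.8, streptavidin 77.0), and at chromosome 9, 77602348 to 77602468 (189.78 and 205). Just outside, 3 shared peaks scored 190.19, 190.19 and 190.33 in the antibody list and 134, 109 and 97.6 in the streptavidin list. They lay at chromosome 10, 80165305 to 80165625, chromosome 3, 132754622 to 132755046, and chromosome 8, 113782803 to 113783133.

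At the lower end, the weakest member was at chromosome 7, 16896484 to 16896713, with an antibody score of 86.3, a streptavidin score of 121 and centres 31 bases apart. The next was at chromosome 11, 106117369 to 106117541, with scores of 86.4 and 67.9 and centres 97 bases apart. The third was at chromosome 4, 82970099 to 82970338, with scores of 86.4 and 62.3 and centres 31 bases apart.

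On the streptavidin side the members reached from near the bottom of the list to rank 24 of it. The strongest streptavidin peak on each member scored from 53.1 to 909, with a median of 85.8 and quartiles of 67.3 and 122. The whole autosomal streptavidin list of 57096 peaks had a median of 74.7 and quartiles of 65.7 and 91.9, and the 2265 strong shared peaks had a median of 114 and quartiles of 77.8 and 189. Weak shared peaks therefore lay between the list as a whole and the strong shared peaks. The median widths of these streptavidin peaks had the same order, with 221 bases in the whole list, 269 on weak shared and 311 on strong shared peaks. A wide peak is met more easily, and the part of width in the scores was not tested. For 352 members, or 27.3% (24.9 to 29.8), the streptavidin peak was in the top 10% of its list, and for 76, or 5.90% (4.67 to 7.32), in the top 1%. The same shares among strong shared peaks were 49.0% and 20.4%. For 462 members, or 35.8%, the streptavidin peak scored below the median of its list.

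**Figure D1:**
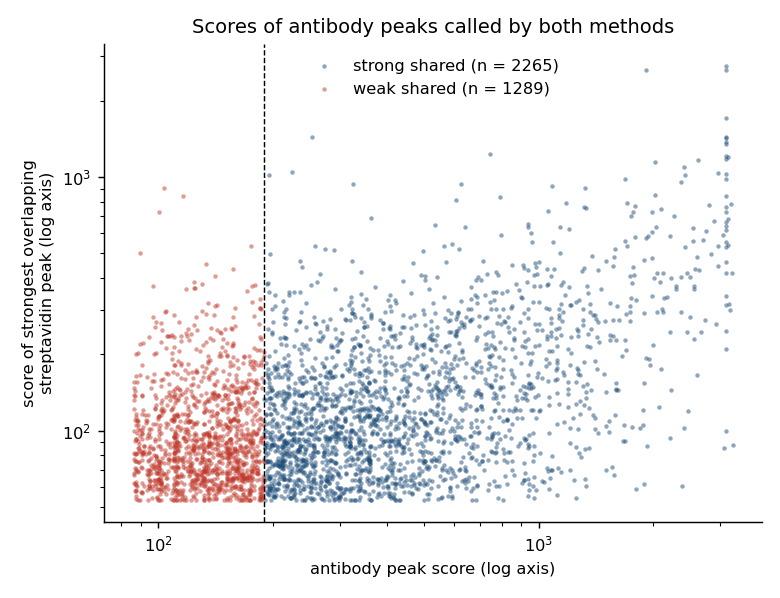
Antibody score (x axis, log) against the score of the strongest overlapping streptavidin peak (y axis, log) for each autosomal antibody peak called by both methods, with 1289 weak peaks in red, 2265 strong peaks in blue and the threshold of 190 as a dashed line. Streptavidin scores climb with antibody scores among the strong peaks and stay level among the weak ones, where Spearman's rho was 0.016.

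How weak a member was in the antibody list said little about its streptavidin score. Over the 1289 weak shared peaks Spearman's rho between both scores was 0.016, and over the 2265 strong shared peaks it was 0.38. These values are across regions of the same 2 libraries, which are not independent, and the weak peaks span a narrower range of antibody scores. By class of antibody score, the median streptavidin score of the members was 82.3 at 80 to under 100 and 85.5 at 160 to under 190, with medians of 85.8 to 88.7 between.

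Seen from the streptavidin list, 1280 peaks, or 2.24%, overlapped a weak antibody peak, against 6.19% that overlapped any antibody peak. In the top 10% of streptavidin scores 5.99% overlapped a weak and 19.2% a strong antibody peak. In the 10% of the list with scores from 70.6 to 74.7 these shares were 1.07% and 1.38%, and in the lowest 10%, with scores up to 58.1, they were 1.94% and 2.24%. Sharing with weak antibody peaks was thus lowest in the middle of the streptavidin list and not at its bottom.

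The 10 members with the highest streptavidin scores fell into 2 arrangements. In 5 of them the same streptavidin peak also overlapped a strong antibody peak, and the weak peak lay beside that stronger one. The member at chromosome 7, 16894764 to 16895346 (antibody score 104), overlapped a streptavidin peak with a score of 909 whose centre was 364 bases away, while an antibody peak with a score of 1319 was 138.5 bases from that centre. The member at chromosome 14, 19071376 to 19071553 (116), lay wholly inside a streptavidin peak of 1005 bases with a score of 839, next to an antibody peak scored 3100. The member at chromosome 14, 103497903 to 103498084 (100.8), met a streptavidin peak with a score of 727 by 5 bases, and 2 antibody peaks with scores of 1984 and 1765 lay on that peak.

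The other two of this arrangement were alike. The member at chromosome 10, 117147224 to 117147621 (antibody score 89.7), met a streptavidin peak scored 500 by 5 bases, and an antibody peak scored 1138 was centred 27.5 bases from the streptavidin centre. The member at chromosome 11, 61667692 to 61668018 (124), overlapped a streptavidin peak scored 384 by 69 bases, with centres 512.5 bases apart and an antibody peak scored 262 on the same peak. In each of these 5 regions at least 1 strong antibody peak was centred nearer to the streptavidin centre than the weak one was.

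In the other 5 no strong antibody peak lay on the streptavidin peak. At chromosome 9, 44689326 to 44689541, an antibody peak with a score of 175.22 lay inside a streptavidin peak scored 537, with centres 19 bases apart and the nearest strong antibody centre 84303.5 bases away. At chromosome 4, 131767999 to 131768190, an antibody peak scored 134 lay inside a streptavidin peak scored 454, with centres 18.5 bases apart. At chromosome 8, 48758999 to 48759271, the scores were 141 and 407 and the centres 11 bases apart. These 3 regions combined an antibody score below 190 with closely centred streptavidin peaks that ranked 75, 103 and 135 among 57096.

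The remaining 2 differed in shape. At chromosome 2, 168032472 to 168032743, the scores were 157 and 435, the centres were 304.5 bases apart, and a strong antibody peak was centred 1646.5 bases away. At chromosome 17, 39984484 to 39985833, an antibody peak of 1350 bases, the widest of the members, held the whole of a streptavidin peak of 1185 bases, with scores of 131 and 377. The next widest member, at chromosome 12, 114394173 to 114394864, had 692 bases.

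Over all members, a strong antibody peak on the same streptavidin peak was rare. For 62 members, or 4.81% (3.71 to 6.12), an overlapping streptavidin peak also met a strong antibody peak. Their centres were a median of 202 bases from the streptavidin centre, against 59.5 bases for the other 1227. Separate antibody peaks on the same streptavidin peak cannot all be centred on it. A larger distance therefore follows in part from how the 62 were chosen. The 62 also had a higher median streptavidin score, 129.8 against 84.9. Among the 76 members with a streptavidin peak in the top 1% there were 14 of them, or 18.4% (10.5 to 29.0), and among the 937 whose streptavidin peak was below the top 10% there were 25, or 2.67% (1.73 to 3.91). Counted by distance alone, a strong antibody centre lay within 500 bases of 109 members, or 8.46% (6.99 to 10.1). For weak unshared peaks this was 3.47% (3.09 to 3.88).

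Peak centres of both methods lay close together in the weak shared peaks, nearly as close as in the strong ones. The distance ranged from 0 to 622 bases with a median of 64 (quartiles 27.5 and 123.5), against a median of 56 (quartiles 26 and 111) in strong shared peaks. The overlap rule itself limits how far apart the centres can lie. That limit was wider for strong shared peaks, with median widths of 342 (antibody) and 311 bases (streptavidin), against 240 and 269. Close centres are therefore no separate sign of agreement between the methods. Centres were within 50 bases in 542 members, or 42.0% (39.3 to 44.8), and over 200 bases apart in 130, or 10.1% (8.50 to 11.9). The streptavidin centre was at the higher position in 634 members and at the lower position in 654, and 1 had the same centre, so neither side prevailed. Overlap was by a median of 176 bases, and 90.7% of the shorter peak was covered at the median, against 97.3% in strong shared peaks. Only 32 members, or 2.48%, overlapped by fewer than 20 bases.

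**Figure D2:**
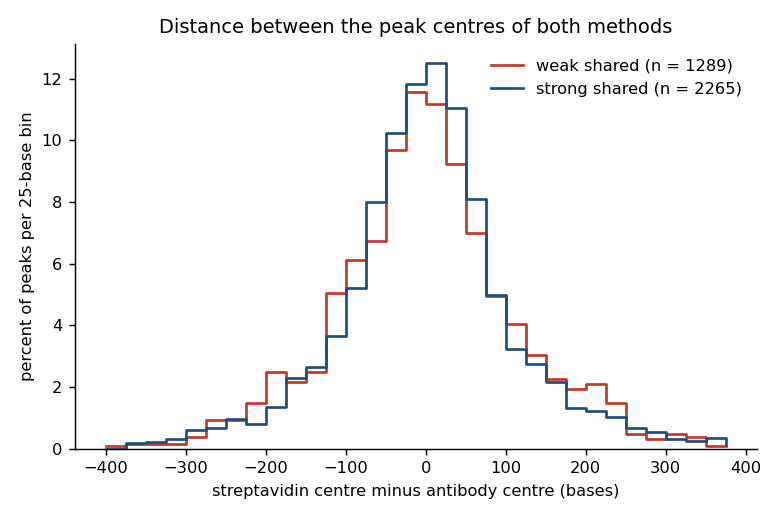
Streptavidin centre minus antibody centre (x axis, bases) as the percent of peaks per 25-base bin (y axis) for 1289 weak shared (red) and 2265 strong shared (blue) peaks. Both curves peak at 0 and are even on both sides; 6 weak and 10 strong peaks lie more than 400 bases apart and are not drawn.

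Judged by whether centres lay inside the other peak, the overlap was looser than in strong shared peaks. Neither centre lay inside the peak of the other method in 225 members, or 17.5% (15.4 to 19.6), against 7.28% (6.25 to 8.43) of strong shared peaks. The antibody peak lay wholly inside the streptavidin peak in 295 members and held the whole streptavidin peak in 136, and the other 858 overlapped in part. Among strong shared peaks the order was turned, with 428 inside and 550 around the streptavidin peak. These counts depend on peak width, and both peaks were narrower in the members. Median widths were 240 bases (antibody) and 269 bases (streptavidin), against 342 and 311 in strong shared peaks. The part of width in these counts was not tested. Nearly all members met 1 streptavidin peak, since 19 met 2. In turn 28 of the 1280 streptavidin peaks were met by 2 members each.

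Weak shared peaks were wider than weak unshared ones. Their widths ran from 103 to 1350 bases with a median of 240 (quartiles 195 and 296), against a median of 222 (quartiles 188 and 252) in weak unshared peaks and 342 in strong shared peaks. The difference grew with the antibody score. At scores of 80 to under 100 the medians were 230 in shared and 233 in unshared peaks, and at 160 to under 190 they were 247 and 207. At the lowest scores the members were thus not the wider peaks.

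The share of weak peaks that overlapped a streptavidin peak was 9.75% (8.82 to 10.7) at widths over 200 and up to 250 bases, 27.7% (24.6 to 30.9) at widths over 300 and up to 400 and 36.8% (30.3 to 43.8) above 400. A wide interval meets another more easily. When sharing was counted instead by a streptavidin centre within 100 bases of the antibody centre, the shares were 6.69% (5.91 to 7.53), 18.2% (15.6 to 21.1) and 19.6% (14.5 to 25.7). They were also higher in the wide peaks, with a smaller step above 400 bases. Why wide peaks were shared more often was not tested. The narrowest peaks, up to 150 bases, were not the least shared, at 11.6% (9.19 to 14.5).

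**Figure D3:**
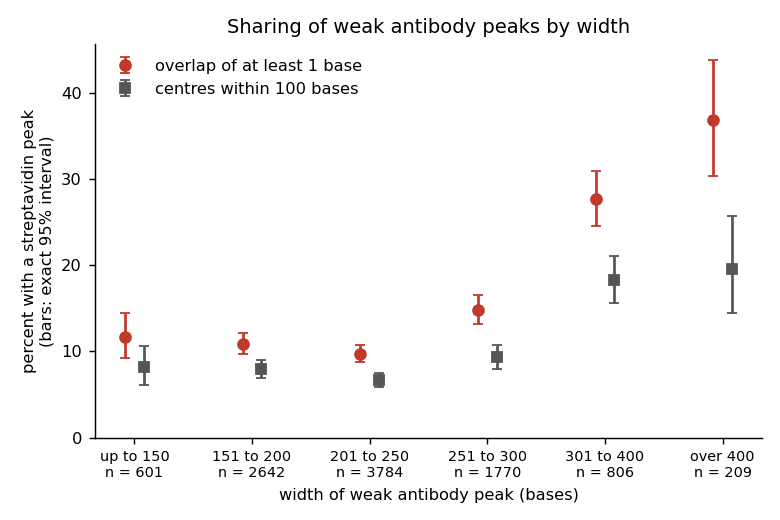
Percent of weak antibody peaks (y axis) that overlap a streptavidin peak by at least 1 base (red circles) or have a streptavidin centre within 100 bases (grey squares), by antibody peak width in bases (x axis), with exact 95% binomial intervals. Both measures are lowest between 200 and 250 bases, at 9.75% and 6.69%, and higher above 300.

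Weak shared peaks had a near neighbour in the antibody list more often than weak unshared ones, although most had none within 1 kb. Another antibody centre lay within 1 kb of 361 members, or 28.0% (25.6 to 30.5), against 1096 weak unshared peaks, or 12.9% (12.2 to 13.6), and 16.5% of all autosomal antibody peaks. Strong shared peaks had 25.2% (23.4 to 27.0) and strong unshared peaks 15.6% (14.5 to 16.8). By this measure weak shared peaks were closer to strong shared peaks than to weak peaks without a streptavidin overlap. The median distance to the next antibody centre was 11386.5 bases for weak shared, 10439 for strong shared, 25393.5 for weak unshared and 24958.5 for strong unshared peaks. At 10 kb both shared classes were again higher than both unshared ones, with 47.6% of the weak shared, 49.4% of the strong shared, 31.3% of the weak unshared and 33.9% of the strong unshared peaks.

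**Figure D4:**
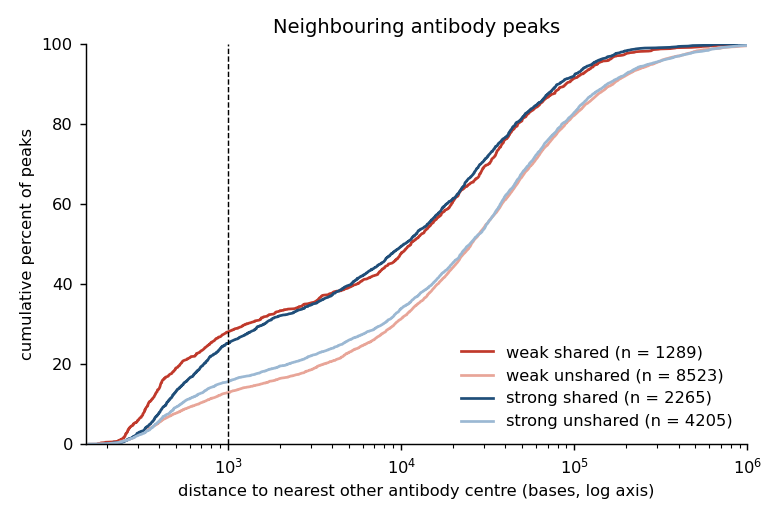
Cumulative percent of peaks (y axis) by distance to the nearest other antibody centre (x axis, bases, log) for the 4 classes of autosomal antibody peaks, with 1 kb as a dashed line. The weak shared (dark red) and strong shared (dark blue) curves run together above both unshared curves, at 28.0% and 25.2% against 12.9% and 15.6% at 1 kb.

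The neighbours were of every class. Of the 361 members with a neighbour within 1 kb, the nearest was a strong shared peak for 103, or 28.5%, a strong unshared peak for 61, another weak shared peak for 82 and a weak unshared peak for 115. Among the 1096 weak unshared peaks with such a neighbour, the nearest was a strong shared peak for 200, or 18.2%, and a weak unshared peak for 470, or 42.9%. A strong antibody centre was within 1 kb of 182 members, or 14.1% (12.3 to 16.1), and of 6.50% (5.99 to 7.04) of weak unshared peaks. The stretch of chromosome 7 from 16894764 to 16896713 held both the member with the highest streptavidin score and the one with the lowest antibody score. The 928 members without a neighbour within 1 kb had a median width of 240 bases, a median streptavidin score of 83.7 and centres a median of 59.3 bases apart, against 239, 93.7 and 78.5 for the 361 with one.

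Further antibody peaks differed more in number between the classes than further streptavidin peaks did. Within 10 kb a weak shared peak had a mean of 0.758 other antibody centres and a weak unshared one 0.459, while the means of streptavidin centres, leaving out the overlapping ones, were 0.813 and 0.711. Within 100 kb the means were 3.70 and 2.92 for antibody centres and 6.65 and 6.49 for streptavidin centres. Strong shared peaks lay near the weak shared ones. They had 0.789 antibody and 0.798 streptavidin centres within 10 kb, and 3.91 and 6.58 within 100 kb. Strong unshared peaks had 0.516 and 0.693 within 10 kb, and 3.06 and 6.32 within 100 kb.

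Many weak antibody peaks had exactly the same score as others, and such peaks were shared at a lower rate as a set. There were 10 scores held by 50 or more weak peaks each, a minimum chosen after the values were seen, and together they covered 1543 weak peaks. Of these, 116, or 7.52% (6.25 to 8.95), were shared, against 14.2% (13.4 to 15.0) of the other 8269 weak peaks. At a score of 112.08, 15 of 320 peaks were shared, or 4.69% (2.65 to 7.61). At 131.91 it was 19 of 320, or 5.94% (3.61 to 9.12), and at 100.80 it was 16 of 285, or 5.61% (3.24 to 8.96). The scores 117.97, 152.57 and 174.00, in 80 to 95 peaks each, had 6 of 95, 4 of 80 and 6 of 91 peaks shared, and the interval of 174.00 (2.46 to 13.8) reached into that of the other weak peaks.

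Other recurring scores were not low. At 110.05, 17 of 106 peaks were shared, or 16.0% (9.63 to 24.4), and at 90.93, 94.60 and 135.89 the shares were 14.1%, 14.3% and 12.4%. The sets also differed in width and neighbours. The median width was 224 bases for recurring and 223 for other scores, but 56.9% of the recurring-score peaks and 35.1% of the others were over 200 and up to 250 bases wide, and 7.91% and 16.1% had another antibody centre within 1 kb. Among peaks over 200 and up to 250 bases wide the shares were 7.06% (5.46 to 8.96) and 10.6% (9.47 to 11.7). Without peaks that had such a neighbour they were 6.83% (5.57 to 8.26) and 12.0% (11.2 to 12.8). What read numbers lie behind a recurring score is unknown, since the lists hold no counts, and the part of read numbers, width and neighbours in the result was not tested.

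**Figure D5:**
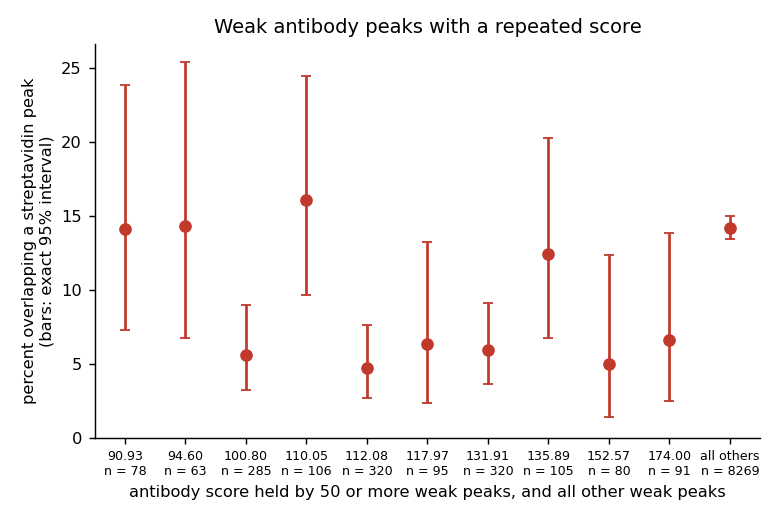
Percent of weak antibody peaks that overlap a streptavidin peak (y axis) for each antibody score held by 50 or more weak peaks and for all other weak peaks (x axis), with exact 95% binomial intervals. Recurring scores such as 112.08 (4.69%) and 131.91 (5.94%) lie below the 14.2% of the other weak peaks, while 110.05 (16.0%) does not.

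Members were found on each of the 19 autosomes, from 35 on chromosome 18 to 95 on chromosome 11. The share of weak peaks that overlapped a streptavidin peak was 11.03% to 15.1% on 18 autosomes. On chromosome 19 it was 19.7% (15.3 to 24.8), with 57 of 289 weak peaks, and the interval lay above the 13.1% of all weak peaks. It was the 1 interval of 19 that did not include that value, and no test was made. The share of strong peaks on chromosome 19 was 34.7% (28.5 to 41.3), near the 35.0% of all strong peaks. Chromosome 19 also had the most members per length, 0.982 per Mb, ahead of chromosome 11 with 0.801 and against 0.332 on chromosome 3. Both lists were denser on chromosomes 19 and 11 too. Chromosomes 19, 11 and 3 had 4.98, 6.15 and 2.95 weak antibody peaks per Mb and 27.7, 28.1 and 21.8 streptavidin peaks per Mb.

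Members were spread thinly. Of 2385 autosomal windows of 1 Mb with a peak of either list, 794 held a member and 476 of these held 1. The windows with a member were richer in antibody peaks, with a median of 11 against 5 in all 2385 windows. A window with many antibody peaks can hold a member more easily. The window with the most, chromosome 10, 79000001 to 80000000, held 9 members among 28 weak and 48 antibody peaks in all. It also held 47 streptavidin peaks, against 23.0 per Mb on chromosome 10 as a whole. The window at chromosome 19, 5000001 to 6000000, held 7 members among 27 weak peaks. At chromosome 11, 74000001 to 75000000, 6 of 12 weak peaks were members, the highest share among the 6 windows with 6 or more.

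The third deposited list, which gives positions named for both methods, contained the weak shared peaks. All 1289 overlapped one of its intervals, as did 54 of the 8523 weak unshared peaks. Members met 1254 of its 3387 autosomal intervals, or 37.0%, and 1178 intervals, or 34.8% of the 3387, met a member and no strong shared peak. The list therefore holds these regions whatever their antibody score. Intervals met by members and no strong shared peak had a median width of 373 bases, against 494 for those met by strong shared peaks and no member. A further 76 intervals met both kinds of shared peak and 2133 met strong shared peaks only, so every autosomal interval met a shared peak. How this list was made is not stated in the labels. Its intervals are thus places where the antibody and streptavidin lists overlap, which is also the rule that chose the members. That all members met it is therefore no independent evidence for the overlap.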

How the data were processed

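The submitters' processing notes name MACS 1.4, Bowtie 0.12.7, CASAVA 1.4 and mouse build mm9; roles, settings, the control library and any pooling are not given in the sources used here. The authors deposited peak intervals with a score per peak for the antibody and the streptavidin precipitation, whose names state a false discovery rate of 0.01, and a list of positions named for both methods. Depth is unknown. From these, antibody peaks on chromosomes 1 to 19 were split at a score of 190 and by overlap of at least 1 base with any streptavidin peak. A member's streptavidin values are those of its overlapping peak with the highest score. Distances are between interval centres. Python 3.11.15, pandas 2.3.3, NumPy 2.4.6, SciPy 1.17.1 and matplotlib 3.10.9 were used. bedtools 2.31.1 gave the same 1289 members, and the overlap step recovered 300 of 300 planted overlaps in simulated data. The members and lists were chosen with earlier results of these data known. Peaks named were the 10 members with the highest streptavidin score, 3 on each side of the threshold and the 3 with the lowest antibody score; other regions named (the second widest member and the 1 Mb windows) were chosen after their values were seen. Genes, motifs and sequences were planned but are not analysed here, since positions are in mm9 and no genome or annotation of that build was used.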

Additional observations from a re-analysis of the deposited data

How the results depend on the processing

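Each value was recomputed with 1 choice changed at a time; leaving out recurring scores, peaks with a neighbour, or members whose streptavidin peak also met a strong antibody peak was chosen after seeing the data, as were all settings of the 2 percentages, the neighbour distances of 500 bases and 10 kb, and the 3 medians with centres within 200 bases or with X and Y. The number of weak shared peaks, 1289, became 840 with scores below 150, 848 with an overlap of 50% of each peak and 474 with streptavidin scores of at least 100, each of which keeps fewer peaks by construction; under the other settings it was 928 to 1635. The median distance between centres, 64 bases, was 49.5 where 50% of the shorter peak had to overlap, 40.0 where 50% of each had to and 54.5 with centres within 200 bases, which remove distant pairs. The median streptavidin score rose from 85.8 to 139 where scores of at least 100 were required. The share of weak peaks counted as shared, 13.1%, was 14.0% with scores below 230, 10.9% and 8.64% with the stricter overlaps, 11.9% with centres within 200 bases, 4.83% with streptavidin scores of at least 100, 11.1% without peaks that had a neighbour within 1 kb and 14.2% without recurring scores. The share of members with a neighbour within 1 kb, 28.0%, was 24.6% with an overlap of 50% of each peak, 34.0% with streptavidin scores of at least 100 and 24.4% without members whose streptavidin peak also met a strong antibody peak; it was 19.0% within 500 bases and 47.6% within 10 kb. Weak unshared peaks had 12.8% to 14.4% within 1 kb under the settings that keep neighbours, below the members in each, and the members' median width (237 to 245 bases) was above that of unshared peaks (220 to 227) in each setting. Other settings for motifs and transcription starts were not run for lack of mm9 sequence. No paired analysis was possible because each group has 1 library, and no replicate could be left out. A peak just under the authors' threshold in either library is missing, which read depth, unknown here, would be needed to weigh.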
